A study of Mus musculus with 16 samples.

Results

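The ParaHox genes Cdx1, Cdx2, Pdx1, Gsx1 and Gsx2 were examined for trimethylation of lysine 27 of histone H3 (H3K27me3), the mark laid down by Polycomb repressive complex 2, in mouse embryonic stem cells. A consensus peak was assigned to a gene when it overlapped the gene's mm10 span extended by 2000 bp on each side. All 5 of the 5 genes had a peak. Together they held 7 distinct peaks of 102957 and 4 distinct gene regions of 18360, which stand for 20255 genes, because Pdx1 and Cdx2 lay under the same single peak and therefore had identical values throughout. The libraries came from 4 lines, each with H3K27me3 and input chromatin at 48 h and 0 h of doxycycline, 1 library per condition and assay, 16 libraries in all. The lines were Firre KO cells with the Firre inducible transgene (KO transgene), Firre KO cells without it (KO control), WT cells with the Firre inducible transgene (WT transgene) and WT cells without it (WT control). Firre is an X-linked long noncoding RNA, and doxycycline, which switches the transgene on, was given to the transgene and the control lines alike. Cells of all lines were cultured in serum with LIF, PD0325901 and CHIR99021. The labels state neither the number of clones behind a line nor the promoter of the transgene. The antibody-bound DNA of many cells was pooled in each library, so a lower mark per cell and fewer cells with the mark cannot be told apart. With 1 library per condition, p-values measure no more than the spread between these libraries, which may be technical. For 48 h against 0 h, induction of the transgene and transgene by background, they mainly reflect counting error at the given read depth.

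ParaHox genes encode homeodomain transcription factors that arose from the same ancestral cluster as the Hox genes. Gsx1 and Gsx2 pattern the ventral forebrain and spinal cord, Pdx1 is required for the pancreas and duodenum, Cdx1, Cdx2 and their X-linked paralogue Cdx4 act in the posterior axis and intestine, and Cdx2 is also needed in the trophectoderm. In embryonic stem cells these developmental regulators are largely silent. H3K27me3 is read by Polycomb repressive complex 1 and is typically found in broad domains over CpG-rich promoters of such genes.

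Promoter sequences of the members carrying the strongest mark are shown because CpG content is the sequence feature most often tied to Polycomb domains. They run 5′ to 3′ on the gene's strand over 300 bases, 250 before and 50 after the RefSeq start site, from the GRCm38.p6 promoter table. Capitals mark CpG dinucleotides.
Gsx2 promoter: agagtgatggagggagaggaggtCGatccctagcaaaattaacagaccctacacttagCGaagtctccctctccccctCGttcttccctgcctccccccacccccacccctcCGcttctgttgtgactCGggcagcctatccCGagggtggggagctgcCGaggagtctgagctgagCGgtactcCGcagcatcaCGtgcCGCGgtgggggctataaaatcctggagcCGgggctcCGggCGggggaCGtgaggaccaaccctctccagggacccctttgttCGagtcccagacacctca
Gsx1 promoter: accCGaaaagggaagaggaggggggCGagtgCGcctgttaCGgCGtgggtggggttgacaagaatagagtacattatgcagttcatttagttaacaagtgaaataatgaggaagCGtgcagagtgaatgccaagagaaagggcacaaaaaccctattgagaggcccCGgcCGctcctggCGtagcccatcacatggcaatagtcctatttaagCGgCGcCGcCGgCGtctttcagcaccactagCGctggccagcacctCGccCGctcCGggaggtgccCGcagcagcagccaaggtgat
Pdx1 promoter: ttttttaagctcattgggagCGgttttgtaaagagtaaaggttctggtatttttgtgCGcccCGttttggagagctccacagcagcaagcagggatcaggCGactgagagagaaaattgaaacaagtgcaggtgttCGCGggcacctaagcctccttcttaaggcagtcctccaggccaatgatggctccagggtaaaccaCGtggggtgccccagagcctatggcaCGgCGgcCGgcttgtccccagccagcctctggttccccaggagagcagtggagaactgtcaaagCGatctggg
Cdx2 promoter: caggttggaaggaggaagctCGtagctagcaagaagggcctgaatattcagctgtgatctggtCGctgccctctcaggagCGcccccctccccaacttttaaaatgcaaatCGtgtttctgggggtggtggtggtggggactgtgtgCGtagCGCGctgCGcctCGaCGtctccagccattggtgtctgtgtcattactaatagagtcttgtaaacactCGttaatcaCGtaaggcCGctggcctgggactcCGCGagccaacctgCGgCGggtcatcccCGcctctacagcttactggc

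These windows lie at chr5:75075351-75075650 on the plus strand for Gsx2, chr5:147188446-147188745 on the plus strand for Gsx1, chr5:147269847-147270146 on the plus strand for Pdx1 and chr5:147307200-147307499 on the minus strand for Cdx2. The Gsx1 window held 19 CpG dinucleotides, the Cdx2 window 18, the Gsx2 window 17 and the Pdx1 window 11, against a median of 7 over 32851 mouse promoters. The G+C content was 63.0% for Gsx2, 57.3% for Cdx2, 57.0% for Gsx1 and 55.3% for Pdx1, against a median of 52.7%. The Pdx1 window, the poorest of the 4 in CpG, still held more CpG dinucleotides than 58.6% of promoters. Windows with at least 11 CpG dinucleotides made up 41.4% of promoters, and 19.2% of them started inside a peak called above input, against 14.9% of all promoters. For consensus peaks of any kind the order was the other way, with 25.8% of these CpG-rich windows and 30.1% of all promoters. Cdx4, whose window held 8 CpG dinucleotides, was near the median. Neither the Cdx-type motif TTTATG, searched on both strands, nor the palindromic homeodomain motif TAATTA occurred in the 4 windows. In all promoters of the same length, 11.9% held TTTATG and 5.29% held TAATTA.

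H3K27me3 libraries held 10380781 to 14787938 counts in consensus peaks and input libraries 3340654 to 6244333. The shallowest input was that of the line labelled KO control at 0 h. At the consensus peak over Firre, input density relative to the mean of chromosome X peaks was 10.7 in the KO transgene line, 11.1 in the line labelled KO control, 14.9 in the WT transgene line and 0.694 in the WT control line, so the value of the line labelled KO control went against its label. Whether the label of the WT control line holds could not be told from these values either, so comparisons of KO with WT lines and of transgene with control lines take the labels as given. KO against WT is given also without the line labelled KO control and in the transgene lines alone, and the other comparisons also without that line, except transgene by background, which needs it. Chromosome 11 stood apart in the KO lines: the median log2 difference KO minus WT was 0.34 for H3K27me3 and 0.35 for input over its 5808 peaks, against -0.01 and -0.01 over the 6476 peaks of chromosome 5, where Gsx2, Gsx1, Pdx1 and Cdx2 lie, and -0.01 and -0.03 over the 3767 peaks of chromosome 18, where Cdx1 lies. Of 10 pluripotency genes, 1 had a consensus peak, Esrrb, with 1.31 times the share of counts in H3K27me3 as in input.

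The marked stretches were broad. The Gsx2 peak spanned chr5:75067652-75084607, 17.0 kb, with edges 7.95 kb before and 9.01 kb after the start site, so that the whole of this forebrain regulator lay inside it. Gsx1, which shares roles with Gsx2 in ventral telencephalic progenitors, lay within a 26.3 kb peak at chr5:147175948-147202252. The peak over Pdx1 and Cdx2 spanned chr5:147256542-147331166, 74.6 kb, and was wider than 99.9% of consensus peaks. It also reached Urad, an enzyme gene of urate breakdown, the near end of Flt3, and the genes Plut and Gm35112. From the start of the Gsx1 peak to the end of the shared Pdx1 and Cdx2 peak, 5 peaks covered 141 of 155 kb (91.0%), and the largest gap was 5.14 kb. Within this stretch, the 3 peaks between Gsx1 and Pdx1 had mean ratios over input of 1.21 (1.17 kb wide), 1.47 (38.3 kb) and 0.688 (0.839 kb), each below the 1.86 of the Gsx1 peak and the 1.81 of the Pdx1 and Cdx2 peak. Of the 3, the widest was called above input and the narrowest below, at 0.55 and -0.58 on the log2 scale (adjusted p = 1.53e-40 and 0.00478, edgeR). The fold enrichments the authors' peak caller gave to the Gsx2, Gsx1 and Pdx1 and Cdx2 peaks were 3.33, 3.05 and 3.02, higher than 99.9%, 99.7% and 99.7% of all peaks. These folds are the authors' values and describe the combined peak, not a library. Peak positions are printed as deposited.

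Cdx1 was covered differently. It is on chromosome 18 and had 4 peaks: chr18:61016468-61020347, chr18:61023012-61025800 and chr18:61029716-61032843 within or at the gene, 3.88, 2.79 and 3.13 kb wide, and chr18:61035601-61075313, 39.7 kb wide. The broad peak covered 598 bp, 3.45%, of the Cdx1 span at the end nearest Pdgfrb, a growth factor receptor gene, and continued into Pdgfrb. By length, its values therefore describe Pdgfrb and the intervening sequence more than Cdx1. The Cdx1 start site was not placed, so whether this peak covers the Cdx1 promoter is not stated here. The authors' caller folds were 1.48, 1.40, 1.65 and 1.97 for peaks 1 to 4 in order of position, higher than 32.6%, 5.71%, 74.3% and 92.7% of peaks.

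**Figure D1:**
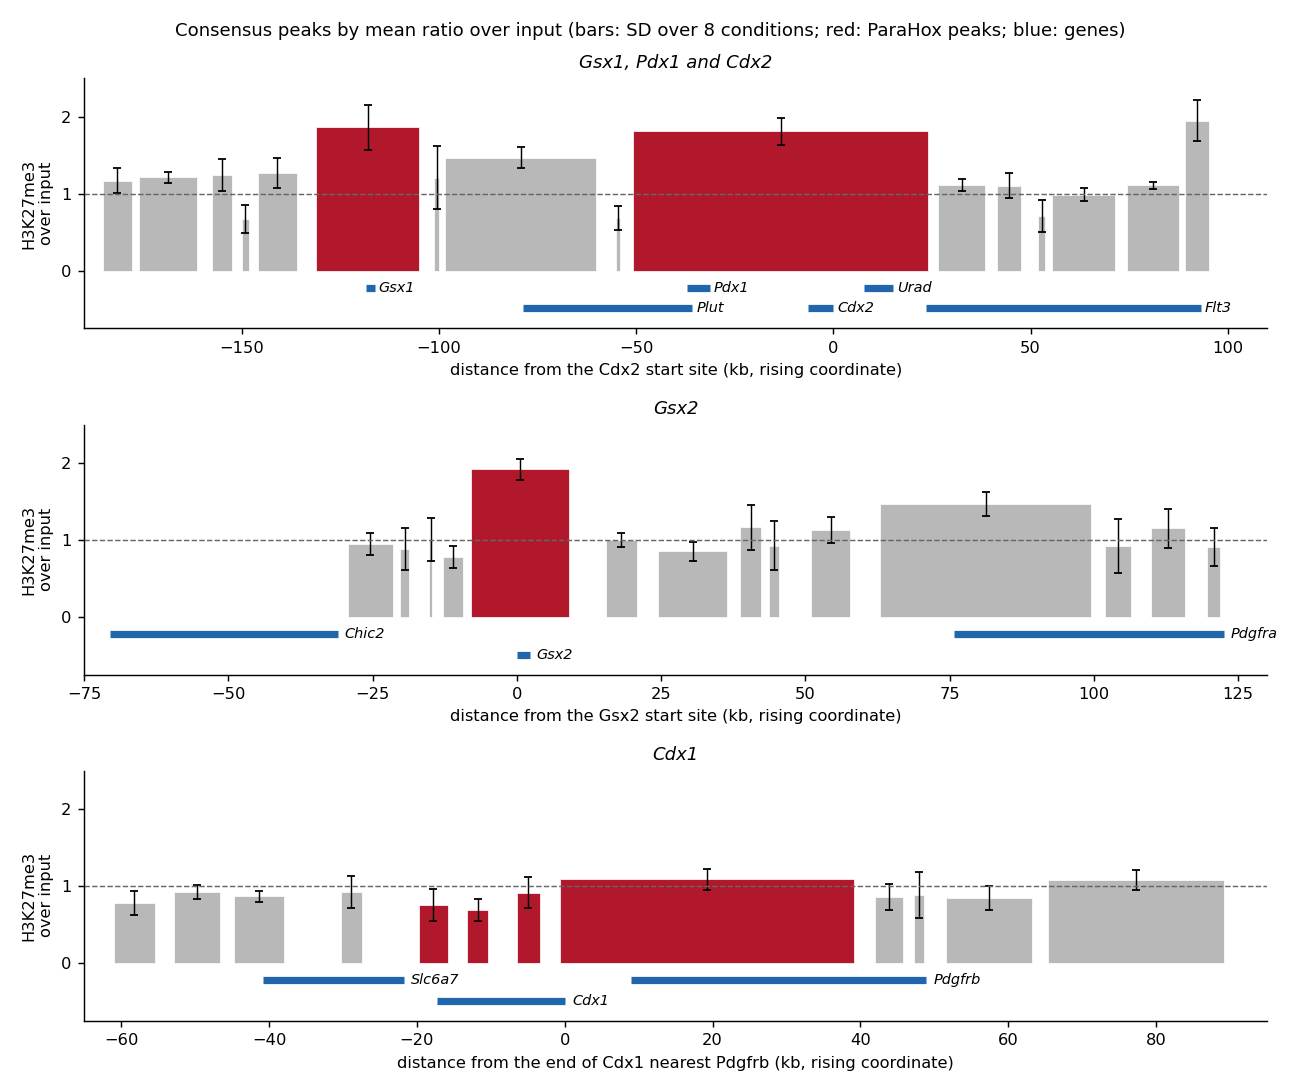
Mean ratio of H3K27me3 over input of each consensus peak (vertical axis, no unit) against distance in kb for the Gsx1 to Flt3 stretch, the Gsx2 locus and the Cdx1 locus, with red bars for ParaHox peaks, grey bars for neighbouring peaks, blue bars for genes and error bars for the SD over 8 conditions. The Gsx1, Pdx1 and Cdx2, and Gsx2 peaks stand at 1.81 to 1.92, and the 4 Cdx1 peaks at 0.688 to 1.09, close to the dashed line at 1.

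Gsx2, Gsx1, Pdx1 and Cdx2 carried a strong H3K27me3 signal in every condition, and Cdx1 did not. The ratio over input is the share of a library's peak counts that falls in a region, H3K27me3 divided by the input of the same line and time. A ratio of 1 is therefore the average consensus peak and not genomic background. The ratio averaged 1.92 ± 0.137 at Gsx2, 1.86 ± 0.292 at Gsx1, 1.81 ± 0.178 at Pdx1 and Cdx2 and 1.02 ± 0.135 at Cdx1 (SD over 8 conditions, n = 8). Among 18360 gene regions, whose median ratio was 0.952 and whose 99th percentile was 1.86, these means of the log2 ratio ranked 151 for Gsx2, 203 for Gsx1, 254 for Pdx1 and Cdx2 and 7037 for Cdx1. In a paired edgeR quasi-likelihood fit of H3K27me3 against input, the log2 differences were 0.94 ± 0.04 for Gsx2, 0.86 ± 0.04 for Gsx1, 0.84 ± 0.03 for Pdx1 and Cdx2 and 0.01 ± 0.04 for Cdx1 (SE), with Benjamini-Hochberg adjusted p-values of 2.89e-27, 2.68e-26, 2.38e-33 and 0.864. Thus 3 of the 4 regions were called above input, against 28.7% of all regions tested. The median log2 difference was 0.85 over the 4 regions and -0.07 over all regions. The same 3 regions were called without the line labelled KO control, at 0.92, 0.81 and 0.79, and Cdx1 gave -0.06 (adjusted p = 0.108, edgeR).

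Per condition, Gsx2 ratios at 48 h and 0 h were 1.79 and 2.12 for KO transgene cells, 1.98 and 2.06 for those labelled KO control, 1.90 and 1.96 for WT transgene cells and 1.71 and 1.83 for WT control cells. Its 48 h value was the lower in each of the 4 lines. Gsx1 ratios, again at 48 h and 0 h, were 1.83 and 1.93 for KO transgene cells, 1.84 and 2.52 for those labelled KO control, 1.82 and 1.79 for WT transgene cells and 1.65 and 1.53 for WT control cells. The value of 2.52 (95% exact interval 2.10 to 3.03, counting error only) rested on 135 input counts, against 309 to 355 in the other inputs. For Pdx1 and Cdx2, they were 1.77 and 1.82 for KO transgene cells, 1.89 and 2.19 for those labelled KO control, 1.73 and 1.80 for WT transgene cells and 1.58 and 1.72 for WT control cells. All 8 of these values were above 1.5, and the highest came again from the shallow input. The Cdx1 region had 1.05 and 1.02 for KO transgene cells, 1.13 and 1.26 for those labelled KO control, 0.867 and 0.847 for WT transgene cells and 1.01 and 0.969 for WT control cells. Both values of each KO line were above both values of each WT line at Cdx1, at the closest 1.02 against 1.01. The share of all regions that separate in this way is not given here.

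**Figure D2:**
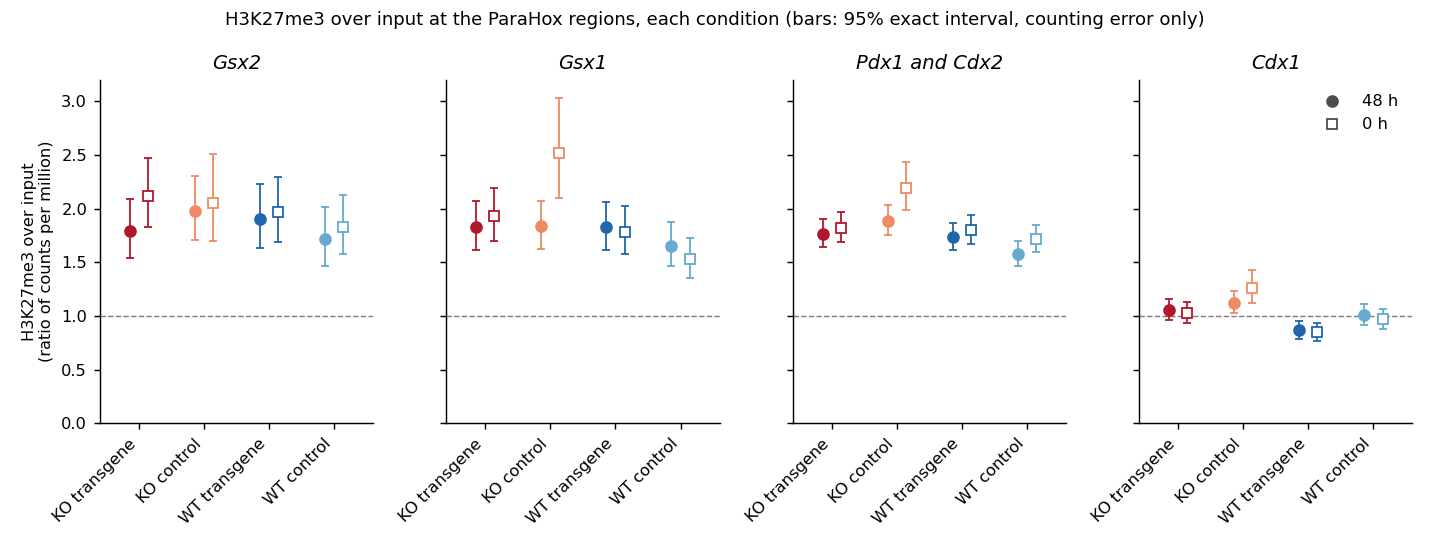
Ratio of H3K27me3 over input (vertical axis, ratio of CPM) of each ParaHox region in each of 4 lines at 48 h (filled circles) and 0 h (open squares), with 95% exact intervals for counting error. Gsx2, Gsx1 and Pdx1 and Cdx2 lie between 1.53 and 2.52 in all conditions, and Cdx1 between 0.847 and 1.26.

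The 4 Cdx1 peaks differed among themselves. The mean ratio over input was 0.758 ± 0.210 for peak 1, 0.688 ± 0.146 for peak 2, 0.915 ± 0.201 for peak 3 and 1.09 ± 0.133 for peak 4 (SD, n = 8 conditions). Peak by peak, peak 4 was called above input by 0.10 ± 0.03 on the log2 scale (adjusted p = 0.00848). Peaks 1 and 2 were called below the average peak, at -0.46 ± 0.10 (adjusted p = 2.93e-05) and -0.57 ± 0.11 (adjusted p = 5.22e-06), and peak 3 was not called, at -0.18 ± 0.10 (adjusted p = 0.145; edgeR with Benjamini-Hochberg adjustment). Of all consensus peaks tested, 7.76% were called above input. Peaks 1 to 3 held 42 to 107 H3K27me3 counts and 19 to 66 input counts per library, against 1053 to 1358 and 255 to 525 in peak 4.

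**Figure D3:**
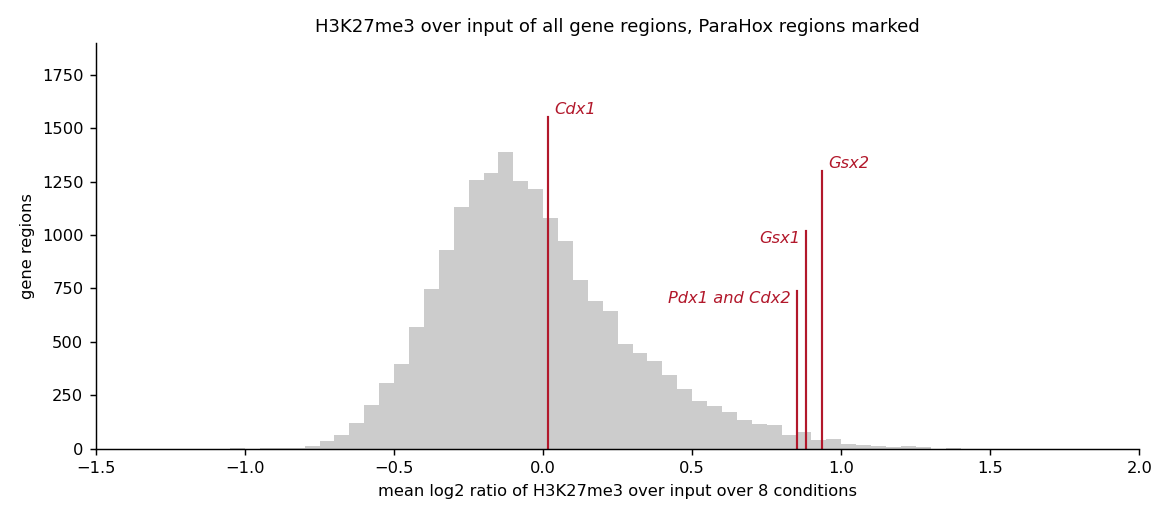
Number of gene regions (vertical axis) by mean log2 ratio of H3K27me3 over input over 8 conditions (horizontal axis), with the 4 ParaHox regions marked by red lines. Gsx2 at 0.94, Gsx1 at 0.88 and Pdx1 and Cdx2 at 0.85 lie in the upper tail, and Cdx1 at 0.02 lies near the middle.

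Cdx1 had less H3K27me3 over input than each of the other ParaHox regions, while the other 3 regions could not be ordered. The mean log2 difference over 8 conditions was 0.92 ± 0.19 for Gsx2 minus Cdx1, 0.87 ± 0.17 for Gsx1 minus Cdx1 and 0.84 ± 0.14 for Pdx1 and Cdx2 minus Cdx1 (SD, n = 8), positive in 8 of 8 conditions each. All 3 had an adjusted p of 0.0156 over 6 pairs by an exact two-sided sign-flip permutation test, whose smallest unadjusted p is 0.00781. The test takes the 8 conditions as independent, although they are 4 lines at 2 times each. Over the means of the 4 lines, the 3 differences were positive in 4 of 4 lines, and an exact test can give no p below 0.125, so no pair could pass. Gsx2 exceeded Pdx1 and Cdx2 by 0.09 ± 0.09 (adjusted p = 0.0703, 7 of 8 conditions, exact test) and Gsx1 by 0.05 ± 0.16 (adjusted p = 0.450, exact test). Gsx1 minus Pdx1 and Cdx2 was 0.03 ± 0.11 (adjusted p = 0.453, exact test). Without the line labelled KO control at 0 h, the condition with the shallow input, Gsx2 exceeded Pdx1 and Cdx2 by 0.11 (adjusted p = 0.0234, exact test) and Gsx1 by 0.10 (adjusted p = 0.0375, exact test).

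The Cdx paralogue on chromosome X, Cdx4, had more of the mark than Cdx1. Its ratio over input was 1.95 ± 0.290 (SD, n = 8), 0.93 ± 0.28 above Cdx1 on the log2 scale (adjusted p = 0.0312, 8 of 8 conditions, exact sign-flip permutation test over 4 pairs), and the difference was positive in 4 of 4 line means. Its differences from Gsx2, Gsx1 and Pdx1 and Cdx2 were 0.01 ± 0.15, 0.07 ± 0.26 and 0.10 ± 0.19, with adjusted p-values of 0.789, 0.604 and 0.344 (exact test).

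Most comparisons placed the ParaHox regions below the Hox clusters, their closest relatives. The 7 summed ParaHox peaks had a ratio over input of 1.58 ± 0.154, against 2.36 ± 0.194 for HoxA, 2.30 ± 0.124 for HoxB, 2.03 ± 0.261 for HoxC and 2.13 ± 0.130 for HoxD, each cluster summed over its peaks (SD, n = 8). The ParaHox sum was lower than each cluster in 8 of 8 conditions. This sum includes the Cdx1 region, most of it the broad peak that continues into Pdgfrb. Without the Cdx1 region, the 3 summed peaks on chromosome 5 had 1.84 ± 0.185 (SD, n = 8). That smaller sum was not tested against the clusters. Single members were lower than single clusters in 15 of 16 comparisons past the adjusted threshold of 0.05, with adjusted p-values of 0.00962 to 0.0167 (exact sign-flip permutation test). The differences ran from -0.13 ± 0.09 for Gsx1 minus HoxC to -1.22 ± 0.19 for Cdx1 minus HoxA on the log2 scale. The exception was Gsx2 minus HoxC at -0.07 ± 0.14, lower in 4 of 8 conditions (adjusted p = 0.227, exact test). The other 15 differences were negative in 4 of 4 line means, where no exact test can pass (smallest p = 0.125).

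H3K27me3 at Gsx2 was lower after 48 h of doxycycline than at 0 h, and no other ParaHox region passed the test. This comparison takes both times of all 4 lines, with the line as a block. No 48 h library came from cells without doxycycline, and collection batches are not labelled. Doxycycline, time in culture and collection therefore cannot be told apart here. Gsx2 levels, as counts scaled to library totals (CPM), were 63.1 CPM after 48 h against 73.6 CPM at 0 h for KO transgene cells, 68.8 against 74.5 for those labelled KO control, 61.3 against 69.9 for WT transgene cells and 58.2 against 64.7 for WT control cells. The 48 h library was the lower in 4 of 4 lines, and the ratios of 48 h to 0 h were 0.857, 0.925, 0.876 and 0.899 in that order of lines. The fitted log2 difference was -0.17 ± 0.04 (SE; adjusted p = 5.98e-04, edgeR quasi-likelihood with Benjamini-Hochberg adjustment), against -0.06 ± 0.07 in input (adjusted p = 0.966). As 1 of the 4 ParaHox regions was called lower, the background was 1.38% of all regions. The Gsx2 peak alone gave -0.18 ± 0.04 (SE; adjusted p = 0.00239, edgeR), where 0.102% of all peaks were called lower. Its nearest neighbours on either side, at ratios over input of 0.776 and 0.998, gave -0.05 ± 0.12 (adjusted p = 0.973) and -0.03 ± 0.09 (adjusted p = 0.981). Broad peaks further out, 39.6 and 36.5 kb wide, gave -0.05 ± 0.03 (adjusted p = 0.794) and -0.07 ± 0.03 (adjusted p = 0.613). The difference of these peaks from the Gsx2 peak was not tested.

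Regions rich in the mark were in general lower at 48 h. Over the 254 regions with a mean ratio at least that of Pdx1 and Cdx2, the median log2 difference was -0.07 and 48 regions were called lower and 0 higher, against a median of 0.00 over all regions. Pdx1 and Cdx2 themselves gave -0.06 ± 0.02 (adjusted p = 0.0953), lower in 4 of 4 lines, with 48 h to 0 h ratios of 0.965 for KO transgene cells, 0.938 for those labelled KO control, 0.988 for WT transgene cells and 0.937 for WT control cells. Gsx1 gave -0.00 ± 0.03 (adjusted p = 0.971) and Cdx1 0.00 ± 0.03 (adjusted p = 0.969). The median over the 4 ParaHox regions was -0.03. With an offset that follows the region's ratio over input in each library, chosen after seeing the data, Gsx2 gave -0.10 ± 0.04 (adjusted p = 0.130), and with input as an offset -0.11 ± 0.07 (adjusted p = 0.784). Gsx2 remained called without the line labelled KO control, at -0.19 ± 0.04 (adjusted p = 0.00125, edgeR) and the other 3 regions were not called. The change at Gsx2 differed between KO and WT lines by 0.01 ± 0.07, not past the test (unadjusted p = 0.942, edgeR).

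Induction of Firre itself, taken as the 48 h minus 0 h difference in transgene lines minus that in control lines, moved no ParaHox region past the threshold. The log2 estimates were -0.07 ± 0.07 for Gsx2, -0.04 ± 0.06 for Gsx1, 0.06 ± 0.04 for Pdx1 and Cdx2 and 0.00 ± 0.06 for Cdx1 (SE), with adjusted p-values of 0.980, 0.988, 0.949 and 0.997 (edgeR). Unadjusted, the lowest of the 4 was 0.114 for Pdx1 and Cdx2, and 0 of 4 fell under 0.05, against 990 of all 18360 regions (edgeR). DESeq2 and limma-voom also called 0 of 4. Leaving out the line labelled KO control also gave 0 of 4 called (adjusted p = 0.998 each, edgeR). Across all regions, 0.049% were called in either direction. The corresponding input estimates were 0.00 ± 0.15, -0.13 ± 0.12, -0.05 ± 0.07 and -0.08 ± 0.09 for Gsx2, Gsx1, Pdx1 and Cdx2, and Cdx1.

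**Figure D4:**
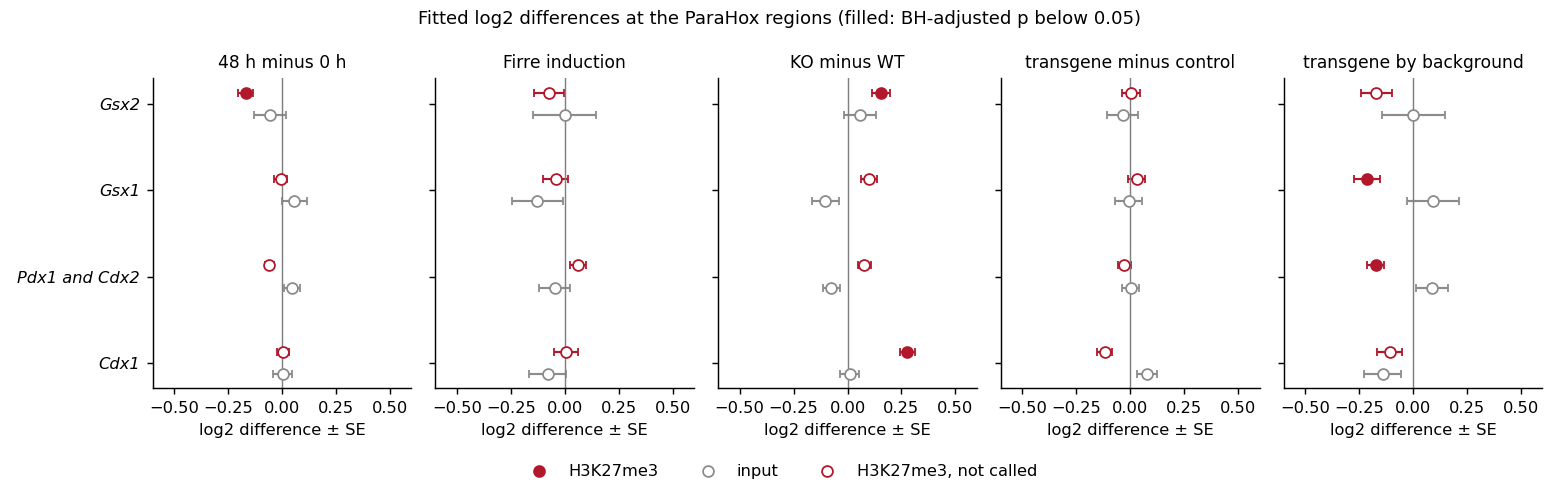
Fitted log2 differences with SE (horizontal axis) of the 4 ParaHox regions for H3K27me3 (red) and input (grey) in 5 comparisons, filled where the adjusted p is below 0.05. Gsx2 at -0.17 is the only filled point for 48 h minus 0 h, Cdx1 at 0.28 and Gsx2 at 0.15 are filled for KO minus WT, and Gsx1 at -0.21 and Pdx1 and Cdx2 at -0.17 for transgene by background.

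H3K27me3 of the Cdx1 region was higher in KO lines than in WT lines. Most counts of this region came from peak 4, the broad peak that continued into Pdgfrb. At 48 h and 0 h the Cdx1 region had 110 and 108 CPM for KO transgene cells and 121 and 123 CPM for those labelled KO control, against 93.7 and 95.2 CPM for WT transgene cells and 99.2 and 97.6 CPM for WT control cells. The 4 KO libraries, 116 ± 7.70 CPM, did not overlap the 4 WT libraries, 96.4 ± 2.46 (SD, n = 4 each). The share of all regions without such overlap is not given here. The fitted log2 difference was 0.28 ± 0.03 (SE; adjusted p = 1.17e-07, edgeR), while input differed by 0.01 ± 0.04 (adjusted p = 0.981). Without both libraries of the line labelled KO control it was 0.22 ± 0.04 (adjusted p = 4.17e-06), in the transgene lines alone 0.22 ± 0.04 (adjusted p = 6.30e-06), and with input as an offset 0.27 (adjusted p = 0.00296). Gsx2 was also called higher in KO lines, by 0.15 ± 0.04 (adjusted p = 0.00798; input 0.06 ± 0.07), so that 2 of the 4 ParaHox regions were called higher, against 9.96% of all regions and 4.09% of regions outside chromosome 11. With 2 lines in each background, exchanging whole lines could give no exact p below 0.333.

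All 4 Cdx1 peaks were called higher in KO lines, where 3.8% of all consensus peaks and 1.17% of those on chromosome 18 were. The log2 differences were 0.58 ± 0.11 for peak 1 (adjusted p = 7.97e-05), 0.45 ± 0.13 for peak 2 (adjusted p = 0.0291), 0.37 ± 0.11 for peak 3 (adjusted p = 0.0389) and 0.26 ± 0.04 for peak 4 (adjusted p = 2.60e-06; edgeR, SE). Peaks 1 and 4 were still called without the line labelled KO control, at 0.67 (adjusted p = 0.00749) and 0.17 (adjusted p = 0.0182), and peaks 2 and 3 were not, at 0.55 (adjusted p = 0.170) and 0.27 (adjusted p = 0.609; edgeR). Input at these peaks differed by 0.17 ± 0.14, 0.06 ± 0.16, 0.05 ± 0.16 and -0.01 ± 0.05. The next peaks on both sides were not called. On the Slc6a7 side, a transporter gene, the 3 nearest peaks gave 0.21, 0.09 and 0.09 moving away from Cdx1, and beyond the broad peak the 3 next peaks gave 0.12, 0.07 and 0.06, with adjusted p-values of 0.422 to 0.931 over the 6. Their difference from the Cdx1 peaks was not itself tested. At peak 1, H3K27me3 was 7.77 ± 0.667 CPM in KO lines and 5.33 ± 0.984 in WT lines (SD, n = 4 each). Its mean ratio over input was 0.896 in the line labelled KO control and 0.767 in the KO transgene line. The WT control line had 0.920 and the WT transgene line 0.449. Over input, neither KO line was therefore above the WT control line at peak 1.

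**Figure D5:**
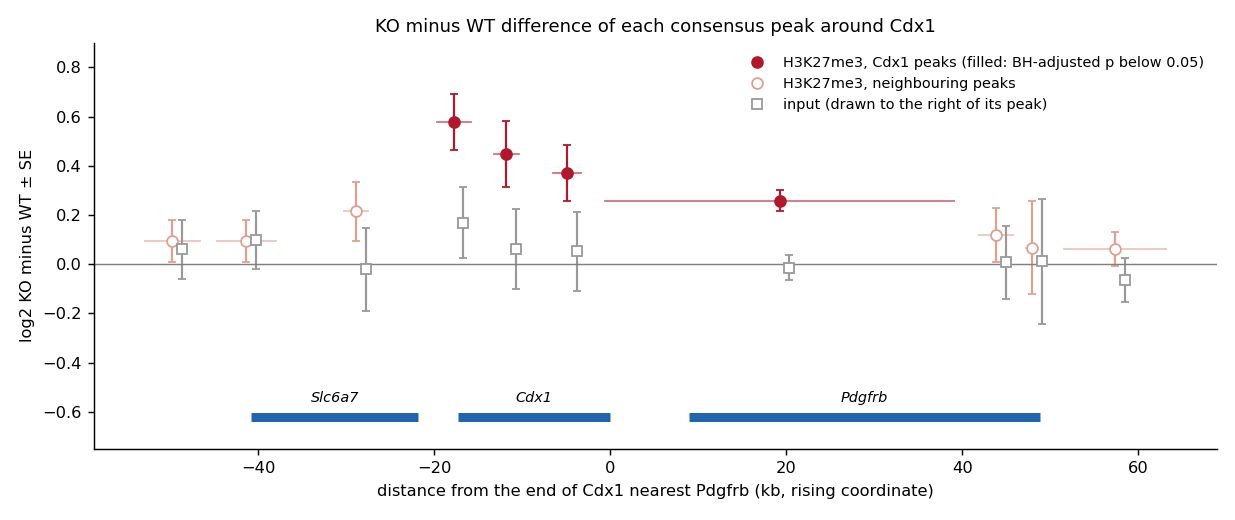
Log2 difference KO minus WT with SE (vertical axis) of each consensus peak around Cdx1 by distance in kb from the gene's end nearest Pdgfrb, with red circles for Cdx1 peaks, pale circles for neighbouring peaks, grey squares for input and blue bars for genes. The 4 Cdx1 peaks lie at 0.26 to 0.58 and are filled, and the 6 neighbouring peaks lie at 0.06 to 0.21.

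For the other ParaHox regions the KO and WT difference was smaller and moved with the line labelled KO control. Gsx2 had 63.1 to 74.5 CPM in KO lines and 58.2 to 69.9 in WT lines, so its groups overlapped, and without the line labelled KO control its difference was 0.07 ± 0.05 (adjusted p = 0.505). Gsx2 was not called with input as an offset. Its call was also lost without the WT control library at 0 h (adjusted p = 0.0617) or at 48 h (adjusted p = 0.0544) and without the library labelled KO control at 48 h (adjusted p = 0.117). A 3.37 kb peak next to the Gsx2 peak was called higher as well, at 0.42 ± 0.12 (adjusted p = 0.0156), and gave 0.30 without the line labelled KO control (adjusted p = 0.540). Gsx1 differed by 0.10 ± 0.04 (adjusted p = 0.0870; input -0.10 ± 0.06) and Pdx1 and Cdx2 by 0.08 ± 0.03 (adjusted p = 0.0943; input -0.08 ± 0.04). Without the line labelled KO control these were -0.01 (adjusted p = 0.940) and -0.02 (adjusted p = 0.842). In the transgene lines alone the differences were 0.07 for Gsx2, -0.01 for Gsx1 and -0.02 for Pdx1 and Cdx2 (adjusted p = 0.518 to 0.946, edgeR). The median over the 4 ParaHox regions was 0.13, against -0.00 over all regions and 0.04 over the 254 regions with a ratio at least that of Pdx1 and Cdx2. Within transgene lines, KO over WT ratios of CPM at Gsx1 were 0.975 at 48 h and 1.00 at 0 h, and within control lines 1.12 and 1.16. For Pdx1 and Cdx2 they were 0.972 and 0.995 within transgene lines and 1.11 and 1.11 within control lines. For Cdx1 they were above 1 throughout, 1.17 and 1.14 within transgene lines and 1.22 and 1.26 within control lines.

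Lines carrying the transgene did not differ from control lines past the threshold at any ParaHox region. The log2 differences were 0.00 ± 0.04 for Gsx2, 0.03 ± 0.04 for Gsx1, -0.03 ± 0.03 for Pdx1 and Cdx2 and -0.12 ± 0.03 for Cdx1 (SE), with adjusted p-values of 0.978, 0.817, 0.774 and 0.0686 (edgeR). At an unadjusted p under 0.05 (edgeR), 1 of the 4 passed, Cdx1 at 0.00125, as did 2373 of all 18360 regions. DESeq2 and limma-voom called 0 of 4 after adjustment. Without the line labelled KO control, 0 of 4 were called, with Gsx1 at 0.13 (adjusted p = 0.0645) and Cdx1 at -0.06 (adjusted p = 0.539, edgeR). Across all regions, 1.47% were called in either direction. Cdx1 had 102 ± 8.53 CPM in transgene lines and 110 ± 13.9 in control lines (SD, n = 4 each), and the groups overlapped.

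At Gsx1 and at Pdx1 and Cdx2 the transgene difference was not the same in both backgrounds. This term, transgene minus control in KO lines less the same in WT lines, was added after seeing the data. At Pdx1 and Cdx2, KO transgene over KO control count ratios were 0.941 at 48 h and 0.914 at 0 h, and WT transgene over WT control ratios were 1.07 and 1.02. At Gsx1 they were 0.940 and 0.968 in the KO background and 1.08 and 1.12 in the WT background. The log2 terms were -0.21 ± 0.06 for Gsx1 (adjusted p = 0.0188) and -0.17 ± 0.04 for Pdx1 and Cdx2 (adjusted p = 0.00137), and -0.17 ± 0.07 for Gsx2 (adjusted p = 0.197) and -0.11 ± 0.06 for Cdx1 (adjusted p = 0.383) did not pass (SE, edgeR). Thus 2 of the 4 regions were called lower, against 2.78% of all regions. Input gave 0.09 ± 0.12 for Gsx1 and 0.09 ± 0.07 for Pdx1 and Cdx2. The 254 regions with a ratio at least that of Pdx1 and Cdx2 had a median of -0.14, with 58 called lower and 1 higher. With the offset that follows the ratio over input, the terms were -0.09 ± 0.06 for Gsx1 (adjusted p = 0.578) and -0.06 ± 0.04 for Pdx1 and Cdx2 (adjusted p = 0.594). Leaving out single libraries ended the Gsx1 call in 6 of 8 cases and the Pdx1 and Cdx2 call in 2 of 8, those without the library labelled KO control at 0 h (adjusted p = 0.0533) and without the WT transgene library at 48 h (adjusted p = 0.0784). DESeq2 did not call Pdx1 and Cdx2 for this term and gave no adjusted p for Gsx1, Gsx2 and Cdx1. With 1 line for each combination, the line and the combination of background and transgene cannot be told apart.

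Many genes listed beside the ParaHox factors were above input too. Of 18 pancreas regulators that act beside Pdx1, 16 were called above input and 0 below, with a median log2 difference of 0.68. Among them, Nkx2-2, an islet regulator, stood at 1.07 and Pax6, another islet and forebrain regulator, at 1.01. Of 14 regions of forebrain genes listed beside Gsx1 and Gsx2, 12 were above input and 1 below, with a median of 0.70. This list is not ventral alone, as it includes Pax6, Emx1 and Emx2. Pax6 at 1.01 and the Dlx5 and Dlx6 region at 0.88 led this list, and Ebf1, a striatal neuron factor, was below at -0.24. Of 14 Cdx targets and trophectoderm or gut genes, 10 were above and 2 below, with a median of 0.32. Fgf8, a posterior axis signal, at 1.15, Gata3, a trophectoderm factor, at 0.96 and Cyp26a1, a Cdx target that breaks down retinoic acid, at 0.87 were the highest, and the intestinal cadherin gene Cdh17 at -0.41 and the trophoblast factor gene Elf5 at -0.21 were below. All 6 Hox gene regions were above input, with a median of 1.12. These lists are read against 28.7% of all regions above input and a median of -0.07. Genes named below input, and those beyond the 3 largest changes of a list, were chosen after their values were seen.

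Gsx2 was not alone in its lower H3K27me3 at 48 h. Of the 18 pancreas regulators 8 were called lower and 0 higher, with a median of -0.08, among them Neurod1, an endocrine differentiation factor, at -0.20 (adjusted p = 0.0141) and Insm1, an endocrine zinc finger factor, at -0.15 (adjusted p = 5.98e-04; edgeR). Of the 14 forebrain regions 3 were lower, namely Sp8 at -0.14, Pax6 at -0.11 and Dlx5 and Dlx6 at -0.11, with a median of -0.07. Of the 14 Cdx targets and trophectoderm or gut genes 3 were lower, namely Tfap2c at -0.26, Eomes at -0.15 and Cyp26a1 at -0.09, with a median of -0.04. Hox gene regions were lower in 5 of 6 cases. Cdx4 gave -0.12 ± 0.05 (adjusted p = 0.202). These counts compare with 1.38% of all regions called lower.

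Higher H3K27me3 in KO lines was found at 4 of the 14 Cdx targets and trophectoderm or gut genes and 3 of the 18 pancreas regulators. It was also found at 3 of the 14 forebrain regions and 6 of the 6 Hox gene regions. In these lists 0 were lower, and 9.96% of all regions were called higher. Several of these lie on chromosome 11, where input was higher as well: Wnt3a, Krt20 and Hand1 in the Cdx list (0.49, 0.37 and 0.35), Sox9 in the pancreas list (0.40), Ebf1 in the forebrain list (0.51) and 2 Hox regions. Off chromosome 11, Eomes (0.16, adjusted p = 0.0218), Nkx2-2 (0.12, adjusted p = 0.0292), Sp8 (0.19, adjusted p = 0.00293), the Dlx1 and Dlx2 region (0.12, adjusted p = 0.00584) and the other 4 Hox regions were called. Outside chromosome 11 this left 1 of 11 regions of the Cdx list, 1 of 16 of the pancreas list and 2 of 13 of the forebrain list, against 4.09% of all such regions. Without the line labelled KO control these became 0 of 11, 0 of 16 and 0 of 13, and 2 of the 4 Hox regions off chromosome 11 were called. In that setting 1 region of the Cdx list was called lower, Tfap2c at -0.29 (adjusted p = 0.00375, edgeR). Cdx1, on chromosome 18, gave 0.28. Cdx4 gave 0.09 ± 0.05 (adjusted p = 0.355).

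Genes next to the ParaHox loci were marked unevenly. Of 9 neighbours of the chromosome 5 cluster, 5 had a peak. Urad shares the Pdx1 and Cdx2 peak and its values. Flt3, a haematopoietic receptor gene, includes that peak in its region and stood at 1.52 times input, with a separate peak at the far end of its span at 1.95 ± 0.269 (SD, n = 8). Flt1, a receptor for vascular endothelial growth factor, stood at 1.16, Lnx2 at 0.937 and Polr1d at 0.744. At the transgene by background term Flt3 gave -0.14 ± 0.03 (adjusted p = 0.00339) and Flt1 -0.14 ± 0.04 (adjusted p = 0.0123). Of 7 neighbours of Gsx2, 5 had a peak, with Pdgfra, a platelet-derived growth factor receptor gene, at 1.34 and Kdr at 1.14 called above input, and Lnx1 at 0.899 and Scfd2 at 0.797 called below. In KO lines Pdgfra was higher by 0.11 (adjusted p = 0.0147) and Lnx1 lower, at -0.10 (adjusted p = 0.0295), and no neighbour of Gsx2 was called for 48 h against 0 h. Neither KO call remained without the line labelled KO control, with Pdgfra at 0.05 (adjusted p = 0.508) and Lnx1 at -0.09 (adjusted p = 0.177, edgeR).

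The regions whose 8 log2 ratios over input came closest to those of each ParaHox region were found by Euclidean distance among 14216 regions with a mean of at least 100 H3K27me3 counts and no ParaHox peak. For Gsx2 these were the region of Nkx2-3 and Gm20467 (distance 0.106), Gm14204 (0.153) and B130024G19Rik (0.181), against a median distance of 2.71. For Pdx1 and Cdx2 they were Tfap2b (0.121), Cbx2 (0.136) and the region of Gm33152 and Gm2102 (0.146), with a median of 2.49. For Gsx1 they were Nfkbil1 (0.241), Tfap2b (0.292) and the region of Id3 and Gm42329 (0.309), with a median of 2.61. For Cdx1 they were Cdc14b (0.187), Foxk1 (0.216) and Parvb (0.219), with a median of 0.862. Ratios of these regions share the libraries, depth and scaling of the ParaHox regions.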

How the data were processed

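H3K27me3 and input chromatin were sequenced from 4 mouse embryonic stem cell lines at 48 h and 0 h of doxycycline. Per the submitters' processing notes, BWA 0.7.17-r1188, MACS2, featureCounts and DESeq2 1.26.0 were used with mm10, and the libraries behind the peak call are not given in the sources used here. The deposited counts are raw read counts per consensus peak and library. Per the file headers, each peak also carries the authors' score, a fold enrichment (ratio) and −log10 q. The fold was used to describe peaks and the score was not used.

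Counts of peaks overlapping a gene's RefSeq span, extended by 2000 bp on each side, were summed to 18360 distinct regions. Regions, and peaks alone, were tested with edgeR 4.0.16 quasi-likelihood fits (R 4.3.3) over the whole table with Benjamini-Hochberg adjustment at 0.05. H3K27me3 against input used total counts with the condition as a block, and the other comparisons used TMM scaling of the 8 H3K27me3 libraries. The line was a block for 48 h against 0 h and for induction, while background and transgene were tested in an additive model with time. Estimated dispersion was at its floor for 48 h against 0 h, induction and transgene by background, where standard errors mainly follow depth, and above it for the other H3K27me3 comparisons. The filter on low counts removed no region from the fits of the 8 H3K27me3 libraries. It left 18358 regions for H3K27me3 against input and 18230 for the fits of input alone. Single values have exact 95% intervals for counting error only. Differences between regions were tested over conditions by exact two-sided sign-flip permutation. DESeq2 1.42.0, limma-voom (limma 3.58.1), other scalings, filters and windows, and leaving out each library, were alternatives. Fits were tested on simulated data with 100 regions changed at each size. The ParaHox members and gene lists were chosen with earlier results of these data known. Genes were named when past the threshold with the 3 largest changes of a list. Some genes that this rule names are not reported here. The RefSeq gene table gives no exons, and strand came from the promoter table. Whether deposited peak starts count from 0 or 1 is unknown.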

Additional observations from a re-analysis of the deposited data

Results flagged for a closer look

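The Gsx1 ratio over input in the line labelled KO control at 0 h, 2.52, stood apart from the other 3 KO conditions (1.83 to 1.93) and from the other 7 conditions (1.53 to 1.93). Its input library was the shallowest, and its H3K27me3 level of 102 CPM was close to the 101 of the same line at 48 h. Among 48 h conditions, the Gsx1 ratio of the WT control line, 1.65, lay below the other 3 (1.82 to 1.84). At Cdx1 peak 1, the WT transgene line at 48 h had a ratio of 0.440, against 0.868 to 0.877 in the other 48 h conditions, and the same line had 0.459 at 0 h. At Cdx1 peak 2, the line labelled KO control at 0 h had 0.950, against 0.670 to 0.707 in the other control conditions, on 21 input counts. Chance alone sets apart about 1 in 20 groups. The transgene difference was not equal in KO and WT backgrounds at Gsx1 (-0.21 on the log2 scale) and at Pdx1 and Cdx2 (-0.17). What lies behind these values was not tested.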

How the results depend on the processing

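For 48 h against 0 h, the 1 called ParaHox region, Gsx2, became 0 with input as an offset, with the offset that follows the ratio over input, and without the line block (-0.17, adjusted p = 1.00, edgeR), and stayed 1 to 1 over the single libraries left out. For KO against WT, 2 called regions became 1 with the ratio-following offset (Gsx2 at 0.10, adjusted p = 0.0559, edgeR), with DESeq2 (Gsx2 adjusted p = 0.135) without the line labelled KO control and in the transgene lines alone, and 1 to 3 over the libraries left out. The Cdx1 region, with most of its counts in peak 4, kept its call in every alternative run. Its adjusted p-values were 2.24e-07 to 4.63e-06 (edgeR) over the libraries left out. Gsx1 was called without the KO transgene library at 48 h (adjusted p = 0.0222, edgeR), and Pdx1 and Cdx2 with input as an offset (0.16, adjusted p = 0.0449, edgeR) and without the WT transgene library at 48 h (adjusted p = 0.0320, edgeR). With input as an offset the call of Gsx2 was lost, so the count stayed at 2. For transgene against control, 0 called regions became 1, Cdx1, with the ratio-following offset (-0.12, adjusted p = 0.0294, edgeR), and 0 to 1 over the libraries left out. For transgene by background, 2 became 0 with either offset and 0 to 2 over the libraries left out. The 3 pairs of members that differed became 3 to 5 over the conditions left out and 0 over the means of 4 lines, where none can pass. The cause was not tested. Enrichment over input kept 3 called regions and induction 0 in each alternative over gene regions.

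Over all regions, the 97 higher and 253 lower for 48 h against 0 h became 0 and 3 with input as an offset, 76 and 109 with the ratio-following offset, 0 and 30 with DESeq2 and 0 and 0 without the line block. The 1829 higher and 592 lower in KO lines became 122 and 41, 1741 and 931, and 1165 and 126 with the first 3 of these settings, and 707 and 376 without chromosome 11. The 48 and 222 for transgene lines became 2 and 5, 58 and 364, and 1 and 27, and the 144 and 511 for transgene by background 0 and 7, 73 and 325, and 2 and 122. Without the line labelled KO control the counts were 48 and 192 for 48 h against 0 h and 274 and 162 for transgene lines. DESeq2 gave no adjusted p for Gsx2 over time, or for Gsx1, Gsx2 and Cdx1 in transgene by background. Pdx1 and Cdx2 were not called by DESeq2 in transgene by background. Leaving the peak shared by Pdx1 and Cdx2 out of both left them without a value. The labels carry no replicate numbers, so no further pairing was tried beyond the line and the condition as blocks. The offset that follows the ratio over input and the leaving out of a line or chromosome, and the means of lines, were chosen after seeing the data.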
